A study of Mus musculus with 6 samples.

Results

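The loci described here were stretches of the mouse genome from which the assembly of RNA-seq reads built a transcript without giving it a gene name, and whose listed span was 2 kb or more. They were the rows of the deposited siCon against siH19 table that had a dash for a gene name and a distance from start to end of at least 2000 bp, which gave 244 of the 3019 listed rows. The table listed 470 unnamed rows in all, of which 226 were shorter, beside 2549 rows with a gene name. The RNA came from myotubes of a C3H mouse myoblast line (Sigma-Aldrich), a single line kept in culture, in which differentiation had been under way for 40 h before transfection with a control siRNA (siCon) or an siRNA against H19 (siH19). Both groups carried an siRNA, were harvested 48 h after transfection and had 3 libraries each, made from total RNA after removal of rRNA with a stranded kit. The table held 1 log2 FPKM value per group (FPKM counts fragments per unit of transcript length and of sequencing depth; the authors pooled the 3 libraries) and listed only rows that the authors had called significant. Hence there was no spread between libraries and no test here, and every difference below is the siH19 group value minus the siCon group value on the log2 scale.

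H19 is an imprinted long non-coding RNA that is abundant in embryonic muscle and in differentiating myoblasts, and it is the host transcript of miR-675. Long intergenic non-coding RNAs (lincRNAs) are transcripts made between protein-coding genes, often at low levels and in few tissues. RNA outside annotated genes can also come from an upstream start of a known gene, from transcription past the end of a gene, or from the strand opposite to a promoter, where divergent transcripts begin. A name is missing where no gene model was attached to the assembled transcript, so that an unnamed locus may still lie on a gene of another annotation.

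The targeted transcript, H19, stood at 11.20 log2 FPKM in siCon and 7.50 in siH19, a difference of -3.70. Of the 17 contractile genes looked for, 7 had a listed row (Acta1, Actc1, Ckm, Tnnt3, Tnnt1, Tnnc1 and Tnnc2), with siCon values from 6.91 to 11.30 that fit the myotube label, and all 7 were higher in siH19. In bulk RNA, more cells of a kind and more RNA per cell cannot be told apart, and the part of differentiation state in the values of the unnamed loci was not tested.

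The listed 5′ end of a locus lies at or before the start of its assembled transcript, since a listed position can cover more than 1 transcript. By this end, 25 of the 230 loci that could be looked up began within 300 bp of a gene start in RefSeq. The 300 bases around a start (250 before, 50 after, RefSeq GRCm38.p6) are printed for 6 of the 25. These are 4 of the loci described further on and, for contrast, a pair on the opposite strand. Other loci described further on, XLOC_002850, XLOC_005680 and XLOC_004182 among them, also began within 300 bp of a start and are not printed. CAGCTG, a palindrome that reads the same on both strands and is the E-box form favoured by the myogenic factors MyoD and myogenin, is in capitals. It was found in 7 of the 19 windows on the strand of these loci and in 1 of the 8 on the opposite strand, beside 5352 of the 32817 RefSeq windows of this length (16.3%). The windows and the motif were chosen after the values of the loci had been seen. All 4 printed windows on the strand of the locus hold the motif, so they do not stand for the 19. A match is a description of letters only. The first 4 windows lie on the strand of the locus. Myl2 (chr5:122092939-122093238, plus strand) starts 54 bp from the 5′ end of XLOC_020750. Ly6a2 (chr15:75135079-75135378, minus strand) starts 24 bp from that of XLOC_009806. LOC115489488 (chr2:160620018-160620317, minus strand) starts 52 bp from that of XLOC_016619, which had the highest siH19 level of the 244 loci. Gm45968 (chr16:55582408-55582707, minus strand) starts 239 bp from that of XLOC_010955, the longest, whose position is also that of the Zpld1 row.
Myl2: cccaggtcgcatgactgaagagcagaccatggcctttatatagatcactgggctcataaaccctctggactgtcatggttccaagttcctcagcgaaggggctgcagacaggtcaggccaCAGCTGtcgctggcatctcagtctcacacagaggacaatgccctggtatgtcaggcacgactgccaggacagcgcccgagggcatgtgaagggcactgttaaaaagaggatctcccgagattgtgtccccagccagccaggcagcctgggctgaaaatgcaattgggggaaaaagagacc
Ly6a2: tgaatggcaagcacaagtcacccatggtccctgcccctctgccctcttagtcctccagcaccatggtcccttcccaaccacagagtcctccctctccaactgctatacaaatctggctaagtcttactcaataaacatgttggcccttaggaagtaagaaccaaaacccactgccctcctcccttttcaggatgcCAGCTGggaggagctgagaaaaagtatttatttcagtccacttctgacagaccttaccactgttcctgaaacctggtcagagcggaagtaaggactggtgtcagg
LOC115489488: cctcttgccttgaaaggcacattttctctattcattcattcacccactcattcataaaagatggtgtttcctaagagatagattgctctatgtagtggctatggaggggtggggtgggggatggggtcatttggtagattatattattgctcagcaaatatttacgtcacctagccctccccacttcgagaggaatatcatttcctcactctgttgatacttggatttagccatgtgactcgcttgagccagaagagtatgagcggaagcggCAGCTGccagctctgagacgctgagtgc
Gm45968: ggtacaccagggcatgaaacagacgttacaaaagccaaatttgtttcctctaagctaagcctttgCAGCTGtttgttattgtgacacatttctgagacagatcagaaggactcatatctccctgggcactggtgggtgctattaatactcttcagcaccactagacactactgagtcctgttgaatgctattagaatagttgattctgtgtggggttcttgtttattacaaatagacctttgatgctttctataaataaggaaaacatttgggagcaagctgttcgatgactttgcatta

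The other two windows belong to genes on the strand opposite to the locus, where the start of the gene and the 5′ end of the locus lay head to head. Mbd3 (chr10:80399482-80399781, minus strand) starts 1 bp from the 5′ end of XLOC_002256, and Fyn (chr10:39369549-39369848, plus strand) starts 25 bp from that of XLOC_002774. Neither window held CAGCTG, and both are richer in G and C, at 60.7% for Mbd3 and 69.0% for Fyn against 56.0% for Myl2. XLOC_002774 also began 162 bp from a RefSeq start on its own strand, that of Gm31616.
Mbd3: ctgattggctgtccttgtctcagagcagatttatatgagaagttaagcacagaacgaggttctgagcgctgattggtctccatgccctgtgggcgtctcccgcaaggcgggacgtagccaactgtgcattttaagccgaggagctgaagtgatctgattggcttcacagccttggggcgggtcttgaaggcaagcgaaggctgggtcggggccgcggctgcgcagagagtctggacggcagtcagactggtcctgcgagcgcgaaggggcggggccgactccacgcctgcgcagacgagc
Fyn: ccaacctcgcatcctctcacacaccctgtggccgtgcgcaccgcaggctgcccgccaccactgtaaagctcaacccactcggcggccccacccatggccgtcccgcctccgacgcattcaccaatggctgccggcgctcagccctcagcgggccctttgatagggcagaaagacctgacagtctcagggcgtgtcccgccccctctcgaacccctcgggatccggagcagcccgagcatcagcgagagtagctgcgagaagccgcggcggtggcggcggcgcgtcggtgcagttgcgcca

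The 244 loci were spread over 20 of the 21 chromosomes with listed rows, from 20 loci on chromosome 11 to 2 on chromosome 19. Spans ran from 2009 to 357522 bp with a median of 4919 bp, against a median of 31863 bp for rows with a gene name. By length, 69 loci were under 3 kb, 57 were from 3 to 5 kb, 45 from 5 to 10 kb, 56 from 10 to 50 kb and 17 longer. Only 239 distinct positions were listed, because 10 loci had the position of another listed row, so that a listed span may cover a region that several transcripts share. Strand was read from the order of the feature numbers and gave 124 loci on the plus strand, 118 on the minus strand and 2 without a strand.

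Most of these loci were weakly expressed in both groups. In siCon their values ran from -4.01 to 3.33 with a median of -0.99 log2 FPKM, and in siH19 from -3.01 to 4.58 with a median of -0.36. Both values were under 1 FPKM (0 on the log2 scale) for 129 loci (52.9%), which held for 172 of the rows with a gene name (6.75%) and for 117 of the shorter unnamed rows (51.8%). The short loci were the weakest, with a median siCon value of -1.82 for those under 3 kb and of 1.08 for those over 50 kb.

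In siH19, 180 of the 244 loci had the higher value (73.8%) and 64 the lower one (26.2%), where 62.8% of all listed rows were higher and 37.2% lower. At a difference of at least 1.5-fold, 170 loci (69.7%) were higher in siH19 and 57 (23.4%) were lower, where 37.4% and 16.9% of all listed rows passed the same limits. These counts depend on the scale, with 53 higher and 15 lower on log2(FPKM + 1), and 110 higher and 64 lower after the median difference of the named rows was taken off. The median difference was 0.93, against 0.45 over all listed rows, 0.41 over the rows with a gene name and 1.38 over the shorter unnamed rows. Of the 129 loci under 1 FPKM in both groups 101 were higher in siH19 (78.3%), beside 98 of 117 shorter unnamed rows (83.8%) and 68 of 172 named rows (39.5%) at that level. Of the loci that reached 1 FPKM in a group 79 of 115 were higher (68.7%), beside 85 of 109 shorter unnamed rows (78.0%) and 61.6% of the named rows. A listed row had to be called by the authors, and the smallest difference among the 244 was 0.45 in size, so weak loci with small differences could not appear. At least 2-fold, 110 loci were higher and 24 lower (16.9% and 6.09% of all listed rows), and at least 4-fold, 27 were higher and 3 lower (3.41% and 0.696% of all listed rows).

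**Figure D1:**
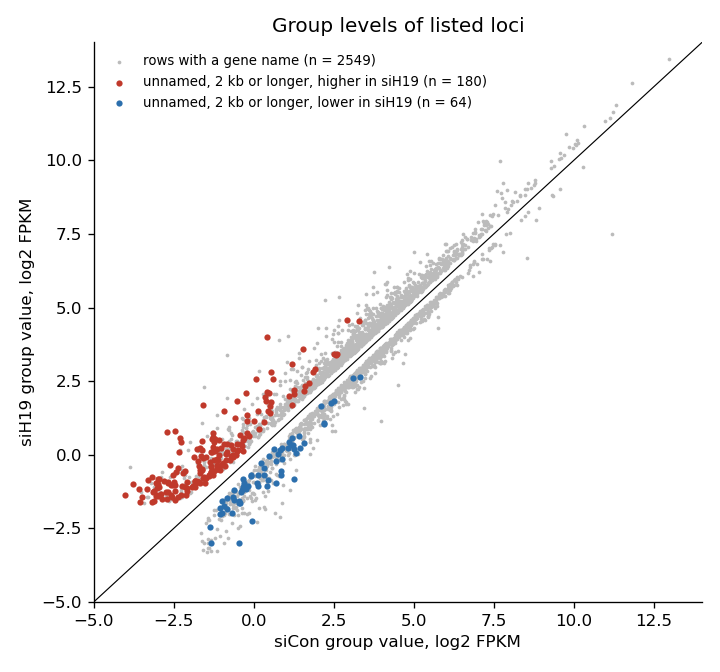
Group values in log2 FPKM of siCon (horizontal axis) and siH19 (vertical axis) for rows with a gene name (grey) and for the 244 unnamed loci of 2 kb or longer, higher (red) or lower (blue) in siH19. The line marks equal values. The unnamed loci sit at the low end, 180 above the line and 64 below it.

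The direction was not spread evenly. On the minus strand 100 of 118 loci were higher in siH19 (84.7%), and on the plus strand 78 of 124 (62.9%), while the named rows gave 60.3% and 60.1% and the shorter unnamed rows 79.1% and 83.5%. All 10 loci on chromosome 17 and 19 of the 20 on chromosome 11 were higher, whereas chromosome 5 had 4 higher and 8 lower. These are extremes picked from chromosomes with 2 to 20 loci each. The direction of all listed rows was not counted by chromosome, so no background stands beside them. Of the loci under 3 kb 59 of 69 were higher, and of those over 50 kb 9 of 17. No test was made of these splits, since neighbouring loci are not independent and no library values were at hand.

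**Figure D2:**
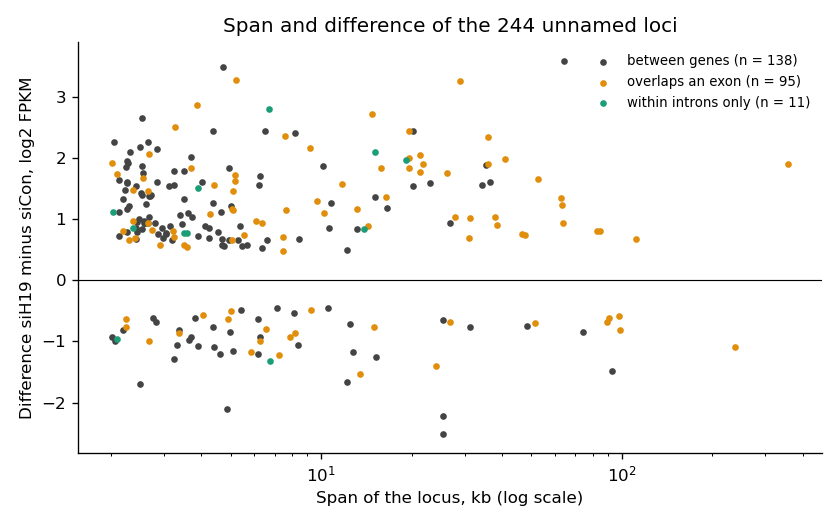
Span of each of the 244 loci in kb (horizontal axis, log scale) and its difference siH19 minus siCon in log2 FPKM (vertical axis), coloured by overlap with GENCODE exons and introns. Loci of 2 to 3 kb are mostly above 0, and the gap around 0 is empty because no listed locus differed by less than 0.45.

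Against the GENCODE annotation of the same build, 138 loci lay between genes, 95 overlapped an exon and 11 lay in introns only. The exon overlap was often small, and with at least 10% of the span required 39 loci counted as exonic, 45 as intronic and 160 as between genes. In each class most loci were higher in siH19, that is 100 of the 138 loci between genes, 71 of the 95 with exon overlap and 9 of the 11 in introns. Of the loci between GENCODE genes 47 overlapped a RefSeq gene, which left 91 outside both annotations.

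A group of 45 loci overlapped an exon of a long non-coding gene on their own strand. Among the exon, intron and between-gene groups they had the highest medians, of 0.60 log2 FPKM in siCon and 0.81 in siH19, and 30 were higher in siH19 and 15 lower. XLOC_016619 (chr2:160567630-160620119, minus strand), whose start window is printed above and which overlaps exons of the lincRNA gene Gm14221, stood at 2.92 in siCon and 4.58 in siH19, the highest siH19 value of the 244 loci. XLOC_004045 (chr11:88215524-88254062) on Gm38534 stood at 2.51 in siCon and 3.42 in siH19. The next locus on that strand, XLOC_004051, chosen after its values were seen, begins less than 1 kb further on over the same gene and stood at 2.57 and 3.39. XLOC_003225 (chr10:118919543-119002527) on Gm38403 stood at 2.60 and 3.41, and XLOC_012607 (chr18:5946480-5967830) on AC168050.1 at 1.53 and 3.58.

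Other loci of the long non-coding group had lower values in siH19. XLOC_015172 (chr2:128452776-128466195) on Gm29010 stood at 0.84 in siCon and -0.69 in siH19, a difference of -1.53. XLOC_007979 (chr14:34762801-34770064) had 47.4% of its span in exons of A930038B10Rik and stood at 1.46 and 0.24. XLOC_013065 (chr18:14307617-14331711) on AC115692.1 stood at 0.84 and -0.56. All 3 were above 1 FPKM in siCon, and the first and the third were below it in siH19. XLOC_017727 (chr3:52174170-52179991) on Gm30074 stood at 2.21 and 1.04, and XLOC_027985 (chr9:68033956-68271365), which spans 237410 bp and meets an exon of Gm28195 over 0.16% of that, at 2.18 and 1.09.

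Exons of protein-coding genes on the same strand were overlapped by 18 loci, of which 14 were higher in siH19. XLOC_019439 lay wholly in an exon of Tmem245 and stood at 1.86 in siCon and 2.82 in siH19, beside 2.37 and 3.06 for the listed Tmem245 row 60 bp away. XLOC_010955 (chr16:55225175-55582696), the longest locus at 357522 bp, had the same position as the listed row of Zpld1, a gene for a zona pellucida domain protein, and stood at -3.13 and -1.23 where Zpld1 stood at -0.83 and 1.94. The only RefSeq miRNA hairpin found inside any of the loci, Mir5118, was in XLOC_010955 on the other strand. XLOC_005680 (97781 bp, Immp2l) stood at -0.98 and -1.57. Of the other long loci, which overlap exons annotated as non-coding, XLOC_026750 (111658 bp, Zfp469) stood at 0.18 and 0.86 and XLOC_016900 (98559 bp, Gm42752, Gm42753 and Gm42921) at 1.15 and 0.34.

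The largest difference was that of XLOC_002052 (chr10:55189207-55253652, plus strand), which stood at 0.41 log2 FPKM in siCon and 3.99 in siH19, a difference of 3.58 or 12-fold. It spans 64446 bp, lies 64.4 kb from the nearest GENCODE gene, the pseudogene Gm46190, and overlaps no gene of GENCODE or RefSeq. The nearest listed row with a name, D630037F22Rik, was 760.6 kb away. With 3.99 log2 FPKM in siH19 it was also the third by level among the 244.

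A pair of neighbouring loci on the minus strand of chromosome 12 overlaps Igha, the gene for the constant region of the IgA heavy chain. XLOC_006634 (chr12:113259933-113265128) stood at -1.59 in siCon and 1.68 in siH19, a difference of 3.27. XLOC_006633 (chr12:113255810-113259668), with 35.0% of its span in Igha exons, stood at -2.30 and 0.57. Both were under 1 FPKM in siCon and above it in siH19. A further locus on that strand, XLOC_006635 over Ighd, the constant region of IgD, stood at -0.93 and 0.36 and was chosen after its values were seen. Immunoglobulin genes are otherwise known from B lineage cells, and of that lineage's transcription regulators Pax5 had a listed row at -0.48 and -2.05 and Pou2af1 one at -2.29 and 0.16, in opposite directions. No full list of B lineage markers was looked up, and a part of such cells in these values was not tested.

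Other loci with large differences lay on non-coding genes, on a gene start or downstream of a gene. XLOC_011169 (chr17:7633438-7662314) on the lincRNA gene Gm49632 stood at -2.45 and 0.81, and XLOC_002850 (chr10:56967399-56982176) on Gm36827 at -2.26 and 0.45. XLOC_009806 (chr15:75131845-75135104), at the Ly6a2 start printed above, stood at 0.07 and 2.58, and Ly6a2 belongs to the Ly6 family of small surface proteins. In GENCODE the exons it overlaps are those of I830127L07Rik, classed as a transcribed pseudogene. XLOC_021228 (chr5:43807467-43815041) had 13.7% of its span in exons of the non-coding gene Gm42555 and lies within the protein-coding gene Fbxl5 on the same strand. It stood at -0.24 and 2.11. XLOC_006502 (chr12:90677042-90697316) lies 27.2 kb downstream of Dio2, the deiodinase that makes active thyroid hormone, on the same strand and with no annotated gene nearer. It stood at -2.34 and 0.10, and the listed Dio2 row at 3.52 and 5.10, so both were higher in siH19.

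Among the loci with lower values in siH19, the largest difference at a level of 1 FPKM or more in the higher group was that of XLOC_020339 (chr5:35166126-35170981), at 1.27 in siCon and -0.83 in siH19, a difference of -2.1. It lies between genes, 60.4 kb from the nearest GENCODE gene, Lrpap1, and 4785 bp from the start of the RefSeq gene Gm31601 on the opposite strand, and its nearest named row, Hgfac, was 117.6 kb away. XLOC_014721 (chr2:61447550-61459734) stood at 0.70 and -0.97, XLOC_009110 (chr15:58481899-58497153) at 1.31 and 0.05, and XLOC_000708 (chr1:161328272-161334445) at 0.14 and -1.06. These 3 also lay between GENCODE genes, and XLOC_014721 overlaps the RefSeq genes Gm33753 and Gm39835. XLOC_008589 (chr14:51476525-51483260), within an intron of Gm7247 and on the opposite strand, stood at 0.46 and -0.86. The lowest difference of all, -2.51, was that of XLOC_002960, which had the same listed position (chr10:77219779-77245302) as XLOC_002180 on the other strand. They stood at -0.47 and -2.98 and at -0.05 and -2.26, under 1 FPKM in both groups, and were named here after their values were seen.

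**Figure D3:**
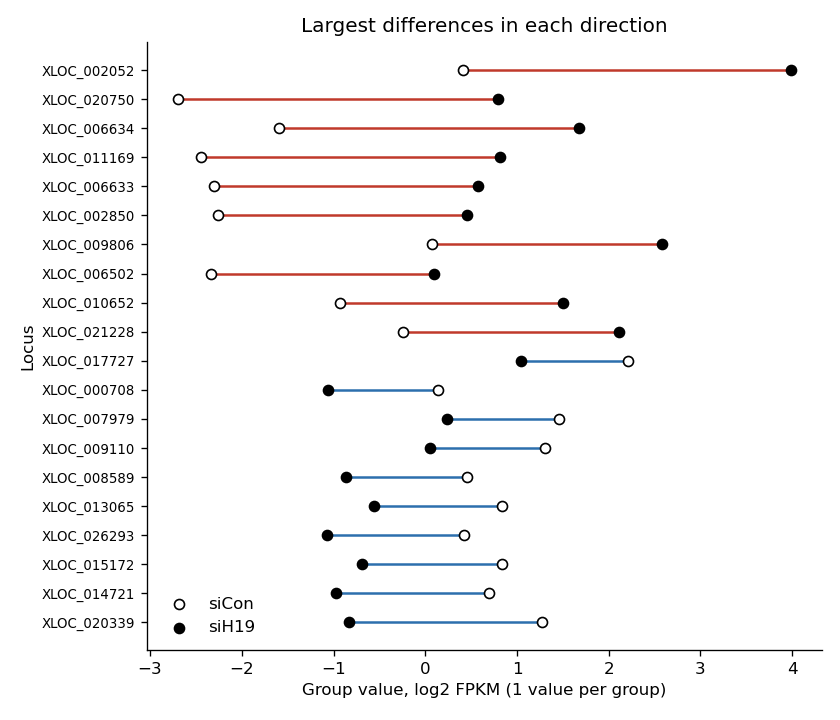
Group values in log2 FPKM (horizontal axis) in siCon (open circles) and siH19 (filled circles) of the 10 loci with the largest positive (red) and the 10 with the largest negative (blue) differences among loci at 0 log2 FPKM or more in the higher group. The top locus, XLOC_002052, goes from 0.41 to 3.99, and the bottom one, XLOC_020339, from 1.27 to -0.83.

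Loci next to a listed row may be parts or extensions of its gene or transcripts of their own, and the listed values cannot tell these apart. By annotation some lie on the gene itself. In GENCODE XLOC_019439 (Tmem245), XLOC_019923 (Ephb2), XLOC_001786 (Enah), XLOC_011975 (Rgmb), XLOC_009438 (Aqp5) and XLOC_010955 (Zpld1) overlap exons of the gene of their named row, on its strand. In RefSeq XLOC_028290 overlaps Acvr2b, XLOC_013318 overlaps Me2 and XLOC_020750 overlaps Myl2. The distance from a locus to the nearest listed row with a gene name had a median of 116.0 kb and reached 5489.1 kb, and 55 loci lay within 10 kb of one. In siCon all 55 were below the named row in FPKM, with a median gap (locus minus named row) of -5.72 on the log2 scale, or 52.7-fold, and in siH19 the median gap was -5.11. Of the 55 loci, 52 differed in the direction of the named row: 44 pairs were both higher in siH19 and 8 were both lower. The share was 21 of 23 within 1 kb, 30 of 31 from 1 to 10 kb, 43 of 61 from 10 to 100 kb and 68 of 128 beyond that (53.1%). In 46 of the 55 pairs the unnamed locus had the larger difference in size, with a median of 0.96 against 0.58, and farther than 10 kb from a named row the same held for 163 of 189 loci. The smallest difference listed was 0.45 for the unnamed loci and 0.31 for named rows. Both members of a pair come from the same libraries and the same normalization, and some pairs lie on the same annotated gene. The shares therefore describe this table.

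**Figure D4:**
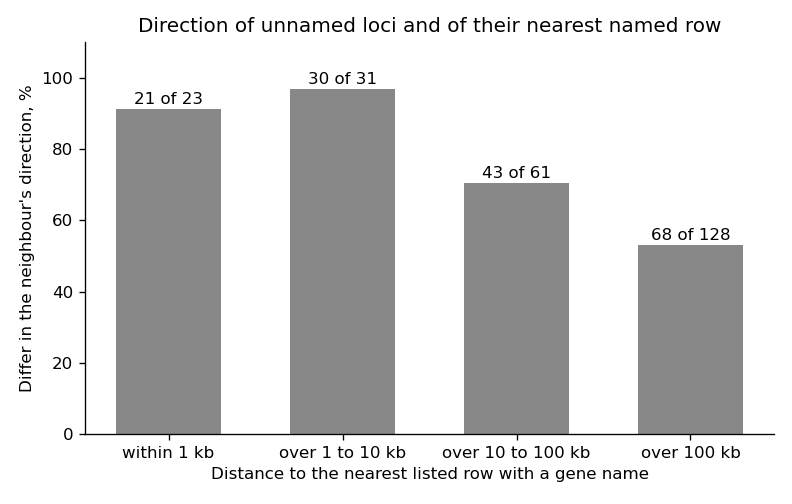
Share in percent of the unnamed loci (vertical axis, from 0) whose difference had the direction of the nearest named row, by the distance to that row (horizontal axis, 4 classes that leave out the 1 overlapping locus). Counts stand above the bars, and the share goes down from 30 of 31 at 1 to 10 kb to 68 of 128 beyond 100 kb.

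The loci near a gene lay on either side of it and on both strands. Of the 55 loci, 31 lay downstream of the named row on its own strand, and 28 of these were higher in siH19 with a median difference of 1.04. Transcription past a gene end would lie on that side, but a listed row can end before its gene does. Among the 31, the loci at Tmem245, Ephb2, Enah and Rgmb overlap exons of that gene, and those at Acvr2b and Me2 overlap it in RefSeq. Upstream and on the opposite strand, where a divergent transcript would lie, there were 11 loci, of which 10 had the direction of the gene. A further 7 lay upstream on the same strand and all 7 had its direction, as did the 4 downstream on the opposite strand. Over the annotation instead of the listed rows, 84 of the 138 loci between genes were within 10 kb of a GENCODE gene, 60 of them on its downstream side. Of the 45 on the gene's strand there 38 were higher, and for 30 of the 45 loci the nearest gene was protein-coding, a gene being counted again for each of its loci. Upstream of a gene on the opposite strand, 8 of 16 loci within 10 kb were higher (median 0.04), as were 4 of 11 within 1 kb (median -0.61) and 16 of 26 within 50 kb (median 0.76). Of the 25 loci that began within 300 bp of a RefSeq start 11 were higher and 14 lower, against 156 of 205 higher among those that began farther away.

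**Figure D5:**
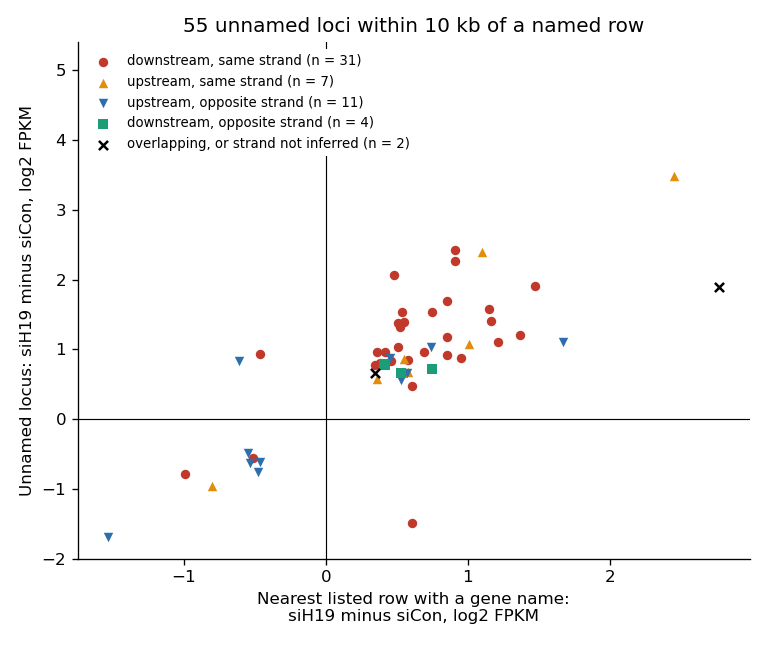
Difference siH19 minus siCon in log2 FPKM of the nearest listed row with a gene name (horizontal axis) and of the unnamed locus (vertical axis) for the 55 loci within 10 kb, by side and strand. Upper right and lower left hold the 52 pairs with 1 direction, and 3 points lie in the other corners.

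Some of the 55 pairs are given with their values, and those beyond the 8 nearest were chosen after their values were seen and stand for no gene group. Unless said otherwise, distances in these pairs are to the listed row, whose ends can differ from those of the annotated gene. XLOC_020750 (chr5:122093135-122097848) begins at the RefSeq start of Myl2, the regulatory light chain of slow and cardiac myosin, 3073 bp upstream of the listed Myl2 row. It stood at -2.70 in siCon and 0.79 in siH19, a difference of 3.49, and the Myl2 row at 3.75 and 6.20, a difference of 2.45. This was the second largest difference among the 244 loci, and that of Myl2 was the second largest among the named rows of the 55 pairs. Sarcalumenin (Srl), a calcium-binding protein of the sarcoplasmic reticulum, had a pair of loci downstream on its strand. XLOC_010653 (chr16:4472201-4474245) was 146 bp from the listed Srl row and 5970 bp from the GENCODE gene, and stood at 0.54 and 2.80. XLOC_010652 (chr16:4467600-4471976) was 2415 bp from that row and 8239 bp from the GENCODE gene, and stood at -0.93 and 1.5. Srl itself stood at 7.0 and 7.91. Both loci thus had differences over 2 where the gene had 0.91.

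XLOC_007247 lay 7304 bp upstream of the listed row of Actn2, the alpha-actinin of the Z disc. The RefSeq start of Actn2 was farther off, 35887 bp from the 5′ end of the locus. XLOC_007247 stood at -3.17 and -0.77, with the Actn2 row at 4.26 and 5.36. Downstream of Tnnt2, cardiac troponin T, which embryonic muscle also makes, XLOC_000613 stood at -1.70 and -0.38, with the gene at 9.52 and 10.04. Myoz2, a Z disc protein that binds calcineurin, had XLOC_018177 at -2.91 and -1.33, with the gene at 6.00 and 7.15. All 3 loci stayed under 1 FPKM in both groups. Jph2, which holds the reticulum close to the surface membrane, had XLOC_016635 at -1.48 and -0.09, with the gene at 6.04 and 6.59. The pair at Mylk2, the myosin light chain kinase of skeletal muscle, went the other way: XLOC_016556, 158 bp upstream on the opposite strand, stood at -1.32 and -3.01, and Mylk2 at 4.66 and 3.13.

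Downstream of Egr3, an early growth response factor, XLOC_008232 (51 bp away) stood at -1.32 and 0.08, with Egr3 at 3.61 and 4.77. Klf4, a zinc finger factor, stood at 4.25 and 5.00 and XLOC_019433, 9509 bp downstream, at -1.74 and -0.20. Tead4, the DNA-binding partner of YAP, stood at 4.71 and 5.19 and XLOC_023347, 8111 bp downstream, at -3.48 and -1.42. All 3 loci were higher in siH19, as was the gene beside each. The RNA-binding protein Quaking (Qk) stood at 6.26 and 7.11, and its downstream loci XLOC_011927 at 0.51 and 1.43 and XLOC_011926 at -1.25 and 0.45. The listed row of the activin receptor gene Acvr2b stood at 0.69 and -0.30. XLOC_028290, 50 bp downstream of that row, stood at 0.33 and -0.46, so the levels were nearly equal. In RefSeq this locus overlaps Acvr2b itself. Over 13.9% of its span it also meets exons of the lincRNA gene 4930516B21Rik on the other strand.

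Of the pairs that lay head to head, XLOC_002256 stood at -0.37 and 0.29 beside Mbd3, a subunit of the NuRD repressor complex, at 4.69 and 5.26. XLOC_002774 stood at -0.34 and -1.10 beside Fyn, a Src family kinase, at 7.12 and 6.64. The windows of the Mbd3 and Fyn starts are printed above. XLOC_002774 also overlaps the RefSeq gene Gm31616, which starts on the strand of the locus, 162 bp from its 5′ end. On the strand of the deadenylase gene Cnot6l, XLOC_021414 lay 53 bp downstream of the listed row. It stood at -0.66 and 0.00, with the row at 4.88 and 5.43. XLOC_009438 lay 50 bp upstream of the listed row of the water channel gene Aqp5. In GENCODE it overlaps 196 bp of Aqp5 exons on the same strand, so it is not apart from that gene. It stood at 1.57 and 2.15, with the row at 6.61 and 6.97. The 3 exceptions to a shared direction were at Zfp568 (XLOC_025113, 0.83 against -0.61), at Me2, a mitochondrial malic enzyme (XLOC_013318, 0.94 against -0.46), and at Irf2, an interferon regulatory factor (XLOC_026293, -1.49 against 0.61). In RefSeq XLOC_025113 overlaps the gene Gm31735, and XLOC_013318 overlaps Me2 itself. XLOC_026293 (chr8:46852672-46945162) spans 92491 bp, overlaps the RefSeq gene Enpp6 and stood at 0.42 and -1.07.

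Loci near genes of 4 lists were looked up within 100 kb. No locus lay within 100 kb of any of the 20 imprinted genes, H19 and Igf2 among them, or of the 17 contractile genes of the list (Myh1, Myh2, Myh3, Myh4, Myh7, Myh8, Acta1, Actc1, Ttn, Neb, Ckm, Des, Tnnt3, Tnni2, Tnnt1, Tnnc1 and Tnnc2). That list did not hold Myl2, Tnnt2 or Actn2, which have the neighbouring loci described above. Of 14 muscle regulators 1 had such a locus: XLOC_014503 (chr2:27036649-27041539), 20.1 kb downstream of Mymk, the gene of the fusion protein myomaker, and on the opposite strand. It had 58.0% of its span in exons of Gm13398 and stood at 2.40 in siCon and 1.77 in siH19.

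Of 12 muscle miRNA and long non-coding genes 4 had a locus within 100 kb, Mir206, Mir133b, Mir1a-1 and Mir133a-2, with 3 loci between them. Mir206 and Mir133b lie on the plus strand of chromosome 1 in the region of linc-MD1, a long non-coding RNA of muscle differentiation, with 1 unnamed locus on either side. The mature 3′ arms (RefSeq, GRCm38.p6, chr1:20679055-20679076 for miR-206 and chr1:20682834-20682855 for miR-133b) are given to mark the place between the loci, with the seed, bases 2 to 8, in capitals.
mmu-miR-206-3p: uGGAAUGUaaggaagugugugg
mmu-miR-133b-3p: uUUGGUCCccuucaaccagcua

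The 2 seeds have different sequences. Upstream, XLOC_000047 (chr1:20655597-20657835, 21.2 kb from Mir206) stood at -2.96 in siCon and -1.11 in siH19. Downstream, XLOC_000052 (chr1:20685111-20687810, 2223 bp from Mir133b) stood at -1.29 and 0.09. The listed row named Mir133b between them stood at 5.03 and 5.54, so all 3 were higher in siH19, by 1.85 and 1.38 for the unnamed loci and 0.51 for that row. XLOC_015561 (chr2:180412405-180417403) lay 63 bp downstream of the listed row that carried Gm6307 and Mir1a-1, and 13.9 kb from Mir133a-2. It stood at -2.70 and -1.49, and that row at 3.07 and 4.44. The listed rows are long RNAs from libraries of total RNA and do not measure mature miRNAs.

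Most loci stood alone and some came in strings. With gaps of up to 10 kb allowed, the 244 loci formed 212 stretches, of which 187 held a single locus and 25 held more, with 57 loci in all. In each of these 25 stretches all loci had 1 direction, and in 23 they lay on 1 strand. The stretch at chr11:54141816-54166142 on the plus strand held 4 loci, 3 of them over the processed pseudogene Gm12221, with differences from 1.63 to 2.43. The 3 over the pseudogene had the same listed position and stood at -1.27 and 0.73, -2.52 and -0.68, and -3.30 and -0.87. The stretch at chr14:76758033-76825429 on the minus strand held 4 loci over 67.4 kb, with differences from 0.74 to 1.47. At chr4:45150490-45162183, between Gm12566 and Frmpd1 on the plus strand, 3 loci in 11.7 kb had differences from 1.95 to 2.1 and siCon values from -3.54 to -3.00. These 3 were among the weakest loci in siCon.

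More than 10 kb from any GENCODE gene and outside RefSeq genes, to which no distance limit was set, were 35 loci. Of these 30 were higher in siH19 and 5 lower, with a median difference of 1.26 and median levels of -1.58 in siCon and -0.62 in siH19. XLOC_002052 led them, followed by XLOC_006502 near Dio2 and the 3 loci at chr4:45150490-45162183. The 5 lower ones included XLOC_020339, XLOC_009110 and XLOC_000708. XLOC_015561 and XLOC_022366 of this group lay within 10 kb of a listed row with a name, 63 bp from that of Gm6307 and Mir1a-1 and 8861 bp from that of Slc6a6.

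The highest level among loci between GENCODE genes was that of XLOC_001572 (chr1:151240186-151250967, minus strand), at 3.29 in siCon and 4.55 in siH19. It overlaps the RefSeq gene Gm46162 and lies 9856 bp from the nearest GENCODE gene, the small nuclear RNA gene Gm24402. Its level in siH19 was the second of all 244.

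At the length limit, the loci just inside were XLOC_004182 (2009 bp), XLOC_019923 (2013 bp) and XLOC_010406 (2028 bp). They stood at -0.63 and -1.55, -2.80 and -0.89, and -1.60 and -0.49 in siCon and siH19. The first lies head to head with Nr1d1, a repressor of the circadian clock. It also overlaps the RefSeq gene Gm31862, which starts on the strand of the locus, 202 bp from its 5′ end. The second lies within an annotated exon of Ephb2, a receptor tyrosine kinase, and the third 2186 bp downstream of the listed row of Heg1. Just outside were XLOC_018862 (1985 bp, -0.91 and -2.05), XLOC_023350 (1962 bp, -1.65 and 0.08) and XLOC_010405 (1959 bp, -1.79 and -0.55).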

How the data were processed

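RNA-seq libraries from 3 siCon and 3 siH19 cultures were read from a single table of the whole experiment. Per the submitters' processing notes and the methods, reads were mapped to mm10 (TopHat 1.0.0, TopHat2 2.0.7) and transcripts were assembled and the groups compared with Cufflinks and Cuffdiff 2.1.1. The gene annotation given to the assembly was not given in the sources used here. The authors deposited log2 values, namely the log2 FPKM of each group pooled over its 3 libraries, rounded to 2 decimals, for rows they called significant. The columns that hold their own fold changes and q-values were not used. Library depth, spread between libraries and precision are therefore unknown, and no test was made.

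Differences were computed as siH19 minus siCon, with a rounding error of up to 0.01. Starts in the table count from 0 (484 named rows began 1 bp before the annotated start, 65 at it) and are printed counting from 1. Strand is not in the table. It was inferred from feature numbers, which run along the plus and then the minus strand of each chromosome, and was the annotated one for 2307 of 2328 named rows (99.1%). GENCODE vM21 (GRCm38, the mm10 assembly) gave exons, introns and genes, any overlap of 1 bp counting, and RefSeq GRCm38.p6 gave gene overlaps, start windows and miRNA sequences. Of the 244 loci, 14 had no inferred strand or lay on a chromosome for which no start windows were used here. Distances are edge to edge, and the scripts recovered the known answers of simulated tables. Python 3.11.15, pandas 2.3.3, numpy 2.4.6 and matplotlib 3.10.9 were used.

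Named loci are the 10 with the largest differences in each direction at 0 log2 FPKM or more, the 6 highest, the 6 longest, 3 on either side of the length limit, the 8 nearest to a named row, the 3 largest stretches, any locus at the floor of a group (0 were found), and loci within 100 kb of genes on 4 lists. Others are said to be chosen after their values were seen. The loci, limits and lists were chosen with earlier results of these data known.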

Additional observations from a re-analysis of the deposited data

How the results depend on the processing

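No paired analysis was possible because the table holds 1 value per group, and leaving out a replicate or adding a replicate block was not run for the same reason. The count of 170 loci higher by 1.5-fold became 110 at 2-fold, 76 with at least 0 log2 FPKM in the higher group, 53 on log2(FPKM + 1), 110 after the median of named rows (0.41) was taken off, 264 with spans from 1000 bp and 74 from 5000 bp. The 57 lower loci became 24 at 2-fold, 31 at 0 log2 FPKM or more, 15 on log2(FPKM + 1) and 33 from 5000 bp, and 64 after the shift, so that 110 higher stood against 64 lower there. The median difference of 0.93 became 0.31 on log2(FPKM + 1), 1.09 from 1000 bp and 0.52 after the shift, and stayed above 0. The 55 loci within 10 kb of a named row became 90 at 50 kb and 16 for spans from 5000 bp. With at least 10% overlap, exonic loci went from 95 to 39 and intronic ones from 11 to 45. The 52 pairs with a shared direction became 50 of 53 with 1 locus per named row and 46 with 0.41 taken off both differences, alternatives chosen after seeing the data. In all, 129 loci were under 1 FPKM in both groups, and the depth behind these values is unknown.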
